A study of Mus musculus with 6 samples.

Results

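Messenger RNA levels of 10 genes that encode extracellular and membrane inhibitors of Wnt signalling were compared between sorted *Pdx1-Cre* lineage cells of wild-type embryos (WT) and of embryos without *mir-302* (KO). The members were chosen by name. They are the secreted Frizzled-related proteins *Sfrp1*, *Sfrp2*, *Sfrp5* and *Frzb*, the Dickkopf proteins *Dkk1*, *Dkk2* and *Dkk3*, the Wnt-binding protein *Wif1*, the secreted protein *Cer1*, and the membrane protein *Apcdd1*. *Cer1* is kept as listed, and nothing here shows that the mouse protein acts on Wnt. All 10 were found by Ensembl identifier among the 55414 genes of the count table, and all 10 passed the filter on low counts, as did 16353 genes in all.

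All 6 libraries came from mouse embryos at E10.5. The genotype was Pdx1-Cre+, Tdtomato+ and miR-302WT in the 3 WT libraries, and Pdx1-Cre+, Tdtomato+ and miR-302KO in the 3 KO libraries. The embryos came from crosses of *mir-302* heterozygous parents, so the deletion was present in every cell of a KO embryo and not only in the labelled lineage. *Pdx1-Cre* is a transgene that switches on the tdTomato reporter in cells in which *Pdx1* regulatory sequences have been active and in their descendants, and the labelled cells were sorted from the trunk. The labels call them pancreatic progenitors, but the *Pdx1* lineage also includes cells of the duodenum and stomach, and nothing in the labels says whether a library came from 1 embryo or from a pool. P-values therefore measure the spread between these libraries, which may be technical. In such bulk samples, fewer cells of a type and less RNA per cell cannot be told apart.

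Wnt proteins bind a Frizzled receptor together with the co-receptor LRP5 or LRP6, and in the canonical branch this stabilises β-catenin. The inhibitors act before the signal enters the cell. Secreted Frizzled-related proteins and WIF1 bind Wnt ligands or the receptor, whereas DKK1 and DKK2 occupy LRP5 and LRP6. In the embryonic foregut the level of Wnt signalling helps to set the boundaries between liver, pancreas and intestine.

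The miR-302 microRNAs deleted in the KO embryos share the letters AAGUGCU near their 5′ end, within the seed with which a microRNA pairs to a target 3′UTR. Of the 10 genes, 3 contain a match of a kind defined below, and only *Apcdd1* has matches to all of these letters. The mature sequences of the 3p arms are shown because the matches are read from them. They are those of RefSeq on GRCm38.p6, all on the forward strand of chromosome 3, at chr3:127545275-127545297, chr3:127545406-127545427 and chr3:127545665-127545687. Capitals mark bases 2 to 8, which are AAGUGCU in mmu-miR-302b-3p and mmu-miR-302d-3p and AGUGCUU in mmu-miR-302c-3p, where the shared letters start at base 1. The cluster also holds mmu-miR-302a-3p.
mmu-miR-302b-3p: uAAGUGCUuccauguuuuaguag
mmu-miR-302c-3p: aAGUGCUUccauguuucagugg
mmu-miR-302d-3p: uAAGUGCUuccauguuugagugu

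Matches to the seed AAGUGCU were searched on the sense strand of each gene's longest 3′UTR in GENCODE M21, as AGCACTT (7mer-m8), GCACTTA (7mer-A1) or AGCACTTA (8mer, counted once although it holds both shorter motifs). *Sfrp2* and *Dkk1* each had 1 match of the 7mer-A1 kind, given here in capitals with 8 bases on each side. This kind does not pair with the last letter of AAGUGCU. The *Sfrp2* match was at bases 381 to 387 after the stop codon in a 3′UTR of 894 bases, and the *Dkk1* match at bases 217 to 223 in a 3′UTR of 1322 bases.
*Sfrp2*: tataccgtGCACTTAggttgcca
*Dkk1*: tcagtgtgGCACTTAcctgtaaa
*Apcdd1*, whose annotated 3′UTR of 8901 bases is far longer than the median of 1184 bases among tested genes, had a 7mer-m8 match at bases 6677 to 6683 and an 8mer match at bases 7791 to 7798. The other 7 members had no match in these windows. Among the 13768 tested genes with a 3′UTR, 20.6% had a match of some kind and 3.54% had an 8mer. The 3 genes with matches did not share a direction. Their log2 fold changes, KO over WT, were -0.09 for *Sfrp2*, -0.22 for *Dkk1* and 0.83 for *Apcdd1*, with adjusted p-values of 0.97, 0.97 and 0.81 in edgeR's quasi-likelihood test.

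Total counts per library ran from 17352498 to 26634523, so that 3 counts, the number a count of 0 allows, correspond to 0.112 to 0.171 counts in each 1000000 of a library (CPM). Intervals on counts cover counting error only. No library held a count of *Mir302a*, *Mir302b* or *Mir302c*, and the only 2 counts of *Mir302d* were in KO replicate 3, so the deletion could not be checked in these mRNA libraries, and *Larp7*, the host gene of the cluster, had a WT level of 63.3 ± 11.3 CPM and a KO level of 61.9 ± 3.61 CPM (SD, n = 3 each). None of 13 markers of pancreatic progenitors was at 0 in any library, and their summed level ran from 1964 to 2385 CPM in WT and from 2035 to 2593 CPM in KO. The epithelial genes *Cdh1* and *Epcam* were the highest of the list in every library. Of the 13, 6 were higher and 7 lower in KO. *Gata4* was at 173 to 249 CPM in WT and 322 to 342 CPM in KO, and *Mnx1* had a log2 fold change of 1.21 (unadjusted p = 0.0352 in edgeR's quasi-likelihood test).

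KO replicate 2 stood apart from the other libraries in most mesenchymal markers and in part of its liver transcripts. The summed level of 12 mesenchymal markers in CPM was 516, 198 and 1093 for WT replicates 1 to 3 and 1060, 53.6 and 1052 for KO replicates 1 to 3. In KO replicate 2, 6 of the 12 were at 0, namely the fibrillar collagens *Col1a1* and *Col3a1* and the mesenchymal regulators *Twist1*, *Prrx1*, *Nkx3-2* and *Tbx18*. Of these, *Nkx3-2* was also at 0 in WT replicates 1 and 2, and *Twist1* had 14 counts or fewer in every library. *Pdgfrb*, *Meox1* and *Foxf1* were not lowest in KO replicate 2, where they were at 11.3, 5.58 and 0.399 CPM. Of 4 mesothelial markers, *Wt1* and *Upk1b* were also at 0 in that library, where the list summed to 12.99 CPM against 29.4 to 107.5 CPM in the other 5, but *Msln* made up 12.8 CPM of that sum and was higher there than in any other library. Liver transcripts were uneven in the same library, with *Afp* at 101.9 CPM against 336 to 1347 CPM elsewhere and *Alb* at 2.62 CPM against 16.3 to 50.4 CPM, while *Ttr* was highest there at 323 CPM. Values that rest on KO replicate 2 are therefore given with and without it. Blood transcripts were uneven too, with 7 markers summing to 15940 CPM for WT replicate 3, 6379 CPM for KO replicate 1 and 336 CPM or less elsewhere. Of 6 gut endoderm markers, *Nkx2-1* was at 0 in 4 libraries, and the list summed to 34.1 to 50.7 CPM in WT and to 98.6 to 111 CPM in KO. Most of this sum was *Ihh*, at 29.1 to 41.3 CPM in WT and 92.7 to 102.5 CPM in KO. *Sox2* was also above WT in every KO library, at 0.660 to 1.55 CPM in WT and 2.88 to 5.14 CPM in KO. So was *Cdx1*, at 0.236 CPM or less in WT and 0.490 CPM or more in KO. *Cdx2* was at 4.15 to 11.2 CPM in WT and 1.80 to 5.67 CPM in KO, and *Hoxb9* and *Nkx2-1* overlapped between the genotypes as well.

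Divided by transcript length in kilobases (RPKM), the CPM values can be compared between genes, and *Sfrp5* was by far the most abundant of the 10 inhibitors. Its mean level over the 6 libraries was 80.5 RPKM, above 93.1% of the genes tested, followed by *Dkk3* at 8.72, *Sfrp1* at 7.13 and *Sfrp2* at 4.46 RPKM. *Dkk2*, *Dkk1*, *Cer1* and *Frzb* lay at 2.33, 1.68, 1.18 and 1.16 RPKM, *Wif1* at 0.250 and *Apcdd1* at 0.0638 RPKM. Only 2 steps in this order separated the ranges of neighbours. Every library had *Sfrp5* (lowest value 46.1 RPKM) above *Dkk3* (highest value 11.2 RPKM) and *Frzb* (lowest 0.847 RPKM) above *Wif1* (highest 0.463 RPKM). The 7 other neighbouring pairs overlapped in range, and *Cer1* was above *Frzb* in 2 of the 6 libraries.

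**Figure D1:**
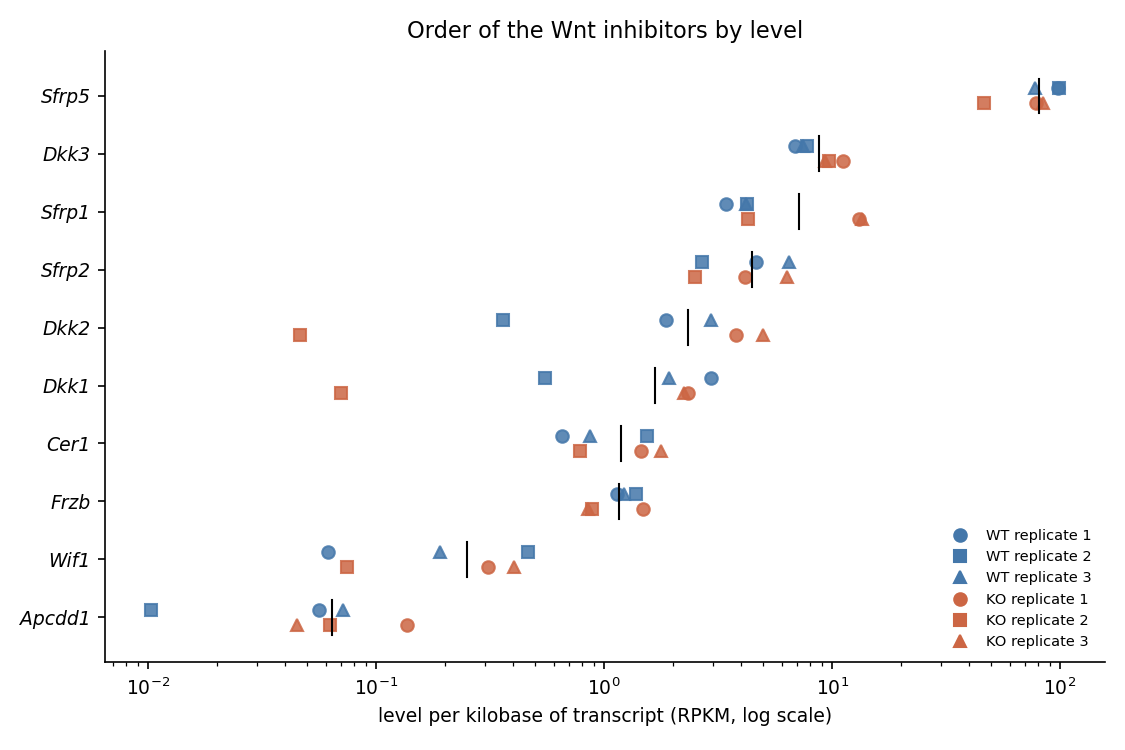
Level of each Wnt inhibitor per kilobase of transcript (RPKM, log scale) in the 6 libraries, blue for WT and red for KO, with the mean of all 6 as a vertical bar. *Sfrp5* lies about 80.5 RPKM and is separate from all others, while KO replicate 2 (red square) lies far to the left of the other libraries for *Dkk1* and *Dkk2*.

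The 4 Frizzled-related genes encode secreted proteins with a cysteine-rich domain like that of the Frizzled receptors. *Sfrp1* (ENSMUSG00000031548.8) had the largest difference of all 10 members. Its CPM values were 15.0, 18.5 and 18.4 for WT replicates 1 to 3 and 57.4, 18.7 and 59.1 for KO replicates 1 to 3. All KO libraries lay above all WT libraries, but the 18.7 CPM of KO replicate 2 nearly equalled the 18.5 CPM of the highest WT library. The WT mean was 17.3 ± 1.96 CPM and the KO mean 45.1 ± 22.8 CPM (SD, n = 3 each). The log2 fold change of 1.38 (standard error 0.40) had an unadjusted p of 0.0104 and an adjusted p of 0.24 in edgeR's quasi-likelihood test, adjusted over all genes by Benjamini and Hochberg's method, while DESeq2's Wald test gave 1.40 and an adjusted p of 0.00287. The two-sided exact permutation test of the 3 libraries against 3 gave p = 0.1, the smallest it can give.

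Without KO replicate 2, the log2 fold change of *Sfrp1* was 1.77 (standard error 0.15) and the adjusted p was 0.136 in edgeR. WT replicate 3, KO replicate 1 and KO replicate 3 had summed mesenchymal levels of 1093, 1060 and 1052 CPM, and *Sfrp1* was at 18.4 CPM in the WT library and at 57.4 and 59.1 CPM in the KO libraries. *Sfrp1* also contains a stretch of 200 bases with 80% GC. Stretches of at least 75% GC were present in 20.2% of the tested genes, whose median log2 fold change was 0.14, against -0.05 for the genes without, and in 4 of the 10 members, the others being *Sfrp2*, *Sfrp5* and *Apcdd1*. In DESeq2 with offsets for the GC share of this stretch, the log2 fold change of *Sfrp1* was 1.05 with an adjusted p of 0.0431. Beyond this refit with GC offsets, the part of mesenchymal or gut cells and of GC content in the *Sfrp1* difference was not tested.

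*Sfrp5* (ENSMUSG00000018822.8), which is expressed in the foregut endoderm, had the opposite sign. Its levels were 185, 189 and 148 CPM in the WT libraries and 149, 87.7 and 159 CPM in the KO libraries. The genotypes overlapped, and KO replicate 2 was the lowest of all libraries. The log2 fold change of -0.40 (standard error 0.22) did not pass in edgeR (unadjusted p = 0.114, adjusted p = 0.62), and it was -0.16 (standard error 0.12) without KO replicate 2. In DESeq2 with the GC offsets it was -0.50, with an unadjusted p of 0.0124 and an adjusted p of 0.196. *Afp* and *Alb* were also lowest in KO replicate 2, and their part in the level of *Sfrp5* was not tested.

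*Sfrp2* (ENSMUSG00000027996.14) had nearly the same set of levels in both genotypes, 9.33, 5.36 and 12.9 CPM in WT and 8.27, 5.01 and 12.7 CPM in KO. Its log2 fold change was -0.09 (standard error 0.42). In both genotypes replicate 2 was the lowest library, as it was for the summed mesenchymal markers. *Frzb* (ENSMUSG00000027004.4), also known as *Sfrp3*, was at 3.58, 4.36 and 3.84 CPM across WT and at 4.66, 2.79 and 2.67 CPM across KO, a log2 fold change of -0.21 (standard error 0.29). The genotypes overlapped for both genes. The unadjusted p-values were 0.83 and 0.49 in edgeR's quasi-likelihood test, and the standard errors of these genes leave room for differences in either direction.

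**Figure D2:**
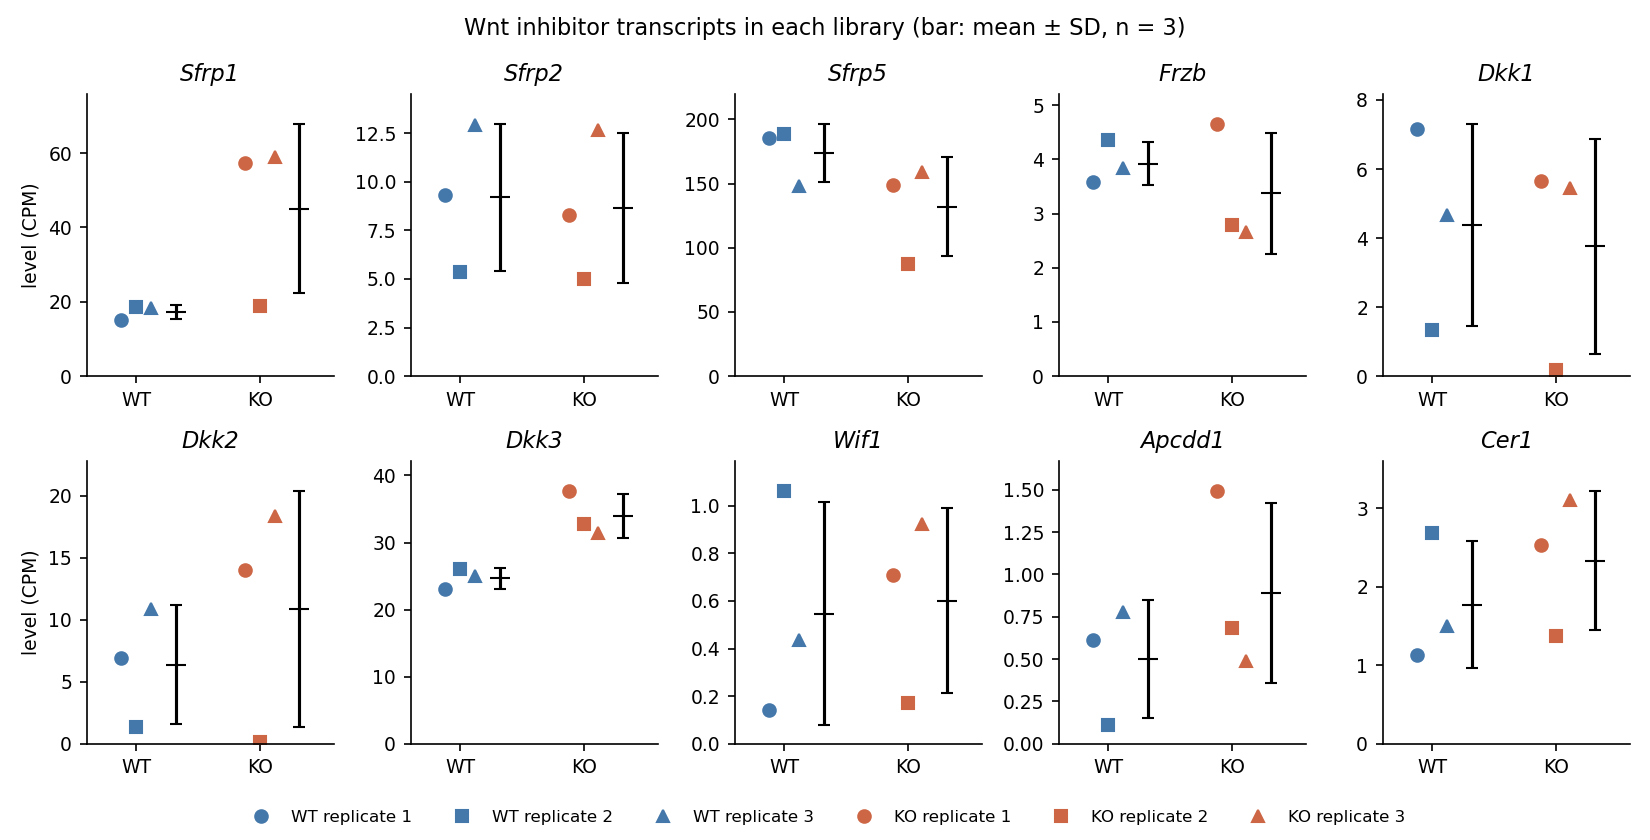
Level of the 10 Wnt inhibitors (CPM, linear axes from 0, scaled to each gene) in each WT library (blue) and KO library (red), with the mean ± SD of the 3 libraries beside them. KO lies above WT in every library only for *Sfrp1* and *Dkk3*, and the KO replicate 2 squares of *Dkk1* and *Dkk2* lie at 0.171 CPM.

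The Dickkopf genes had the smallest and the largest standard errors of the set. *Dkk3* (ENSMUSG00000030772.7), a divergent Dickkopf protein that does not share the LRP6 binding of DKK1, was at 23.0, 26.1 and 25.0 CPM across WT and at 37.6, 32.7 and 31.4 CPM in KO. All 3 KO libraries were above all 3 WT libraries, with means of 24.7 ± 1.57 and 33.9 ± 3.29 CPM (SD, n = 3 each). The log2 fold change of 0.46 (standard error 0.13) had an unadjusted p of 0.00962 and an adjusted p of 0.23 in edgeR's quasi-likelihood test, and the two-sided exact permutation test again gave its smallest p of 0.1. DESeq2's Wald test gave 0.48 and an adjusted p of 0.0431. Without KO replicate 2, the value in edgeR was 0.50 (standard error 0.15), about as large as with it, and DESeq2 then gave an adjusted p of 0.0786, no longer under 0.05.

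*Dkk1* (ENSMUSG00000024868.9), the canonical LRP6 antagonist, was at 7.16, 1.34 and 4.66 CPM across WT and at 5.67, 0.171 and 5.44 CPM in KO. The low value of KO replicate 2 was 3 counts, against 152 and 100 counts in KO replicates 1 and 3. The genotypes overlapped, and the log2 fold change was -0.22 (standard error 0.98, unadjusted p = 0.83 in edgeR) with all libraries and 0.35 (standard error 0.60) without KO replicate 2. *Dkk2* (ENSMUSG00000028031.7), which also binds LRP6, was at 6.93, 1.34 and 10.9 CPM across WT and at 14.0, 0.171 and 18.4 CPM in KO. Here too KO replicate 2 held 3 counts, against 375 and 338 in the other KO libraries. The log2 fold change was 0.76 (standard error 1.17) and became 1.35 (standard error 0.68) without KO replicate 2, where the unadjusted p was 0.092 and the adjusted p 0.52 in edgeR's quasi-likelihood test. It was 0.20 without KO replicate 3 and 0.30 without WT replicate 2.

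In both genotypes, *Dkk1* and *Dkk2* were lowest in replicate 2, the library with the lowest mesenchymal sum of its genotype. In WT replicate 3, KO replicate 1 and KO replicate 3, whose mesenchymal sums were alike, *Dkk1* was at 4.66, 5.67 and 5.44 CPM and *Dkk2* at 10.9, 14.0 and 18.4 CPM. WT replicate 1, with a lower mesenchymal sum of 516 CPM, had the highest *Dkk1* of all libraries at 7.16 CPM, and *Dkk2* at 6.93 CPM. The part of mesenchymal cells in the levels of *Dkk1*, *Dkk2* and *Sfrp2* was not tested.

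**Figure D3:**
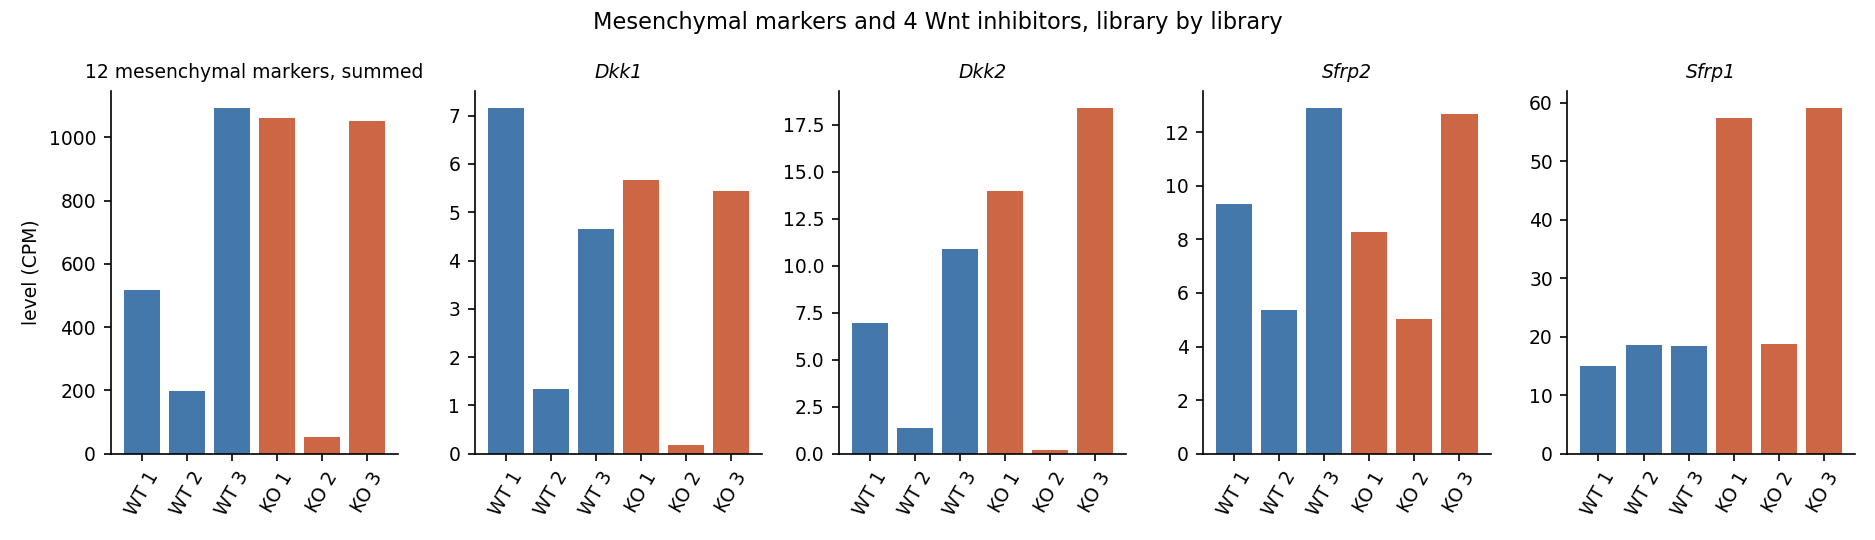
Summed level of 12 mesenchymal markers and levels of *Dkk1*, *Dkk2*, *Sfrp2* and *Sfrp1* (bars, CPM from 0) in WT libraries (blue) and KO libraries (red), in the same order of libraries in each panel. KO replicate 2 is the lowest bar for the markers (53.6 CPM), *Dkk1*, *Dkk2* and *Sfrp2*, while for *Sfrp1* it stands at the WT level.

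The remaining 3 inhibitors had the fewest counts of the 10. *Cer1* (ENSMUSG00000038192.6), a secreted antagonist of Nodal and BMP known from the anterior endoderm, was at 1.13, 2.68 and 1.51 CPM across WT and at 2.53, 1.37 and 3.10 CPM in KO, a log2 difference of 0.40 (standard error 0.45). *Wif1* (ENSMUSG00000020218.12), which binds Wnt ligands through its WIF domain, had 3, 19 and 9 counts in WT and 19, 3 and 17 counts in KO. With 31 counts in all WT libraries and 39 in all KO libraries, the ratio of KO to WT was 1.20 (95% counting interval 0.728 to 1.98). *Apcdd1* (ENSMUSG00000071847.14), a membrane glycoprotein that binds Wnt ligands and LRP5, had 13, 2 and 16 counts in WT and 40, 12 and 9 counts in KO. Its genotypes overlapped, and the log2 fold change of 0.83 (standard error 0.72) had an unadjusted p of 0.28 in edgeR's quasi-likelihood test. The log2 fold change of *Wif1* was 0.17 (standard error 0.82). None of these 3 genes differed beyond the spread between libraries.

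Over all 10 members, 6 were higher and 4 lower in KO, and the median of the log2 fold changes was 0.29, against 45.6% of all tested genes higher in KO and a median of -0.02. *Sfrp1* and *Dkk3* were the 2 members at an unadjusted p under 0.05 in edgeR, a threshold that 10.4% of all genes passed (6.42% higher and 3.97% lower in KO). None of the 10 had an adjusted p under 0.05 in edgeR, where 0% of all genes reached it, while 1700 genes in all had an unadjusted p under 0.05. In DESeq2 the same 2 members, both higher in KO, had an adjusted p under 0.05, against 4.87% of the 14353 genes with an adjusted p there, or 4.22% counting only those higher in KO. In 2 members the lowest KO library was above the highest WT library, which held for 8.36% of all genes, and in none was the highest KO library below the lowest WT library, which held for 7.99%. Without KO replicate 2, 8 of the 10 had a higher level in KO, with a median of 0.55. The median was 0.13 without KO replicate 1, 0.08 without KO replicate 3, and 0.24 to 0.35 without any one of the WT libraries. Leaving out WT replicate 3 and KO replicate 1, the libraries with the most blood transcripts, brought the number at an unadjusted p under 0.05 to 0, with *Sfrp1* at 1.24 and *Dkk3* at 0.41 on the log2 scale.

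**Figure D4:**
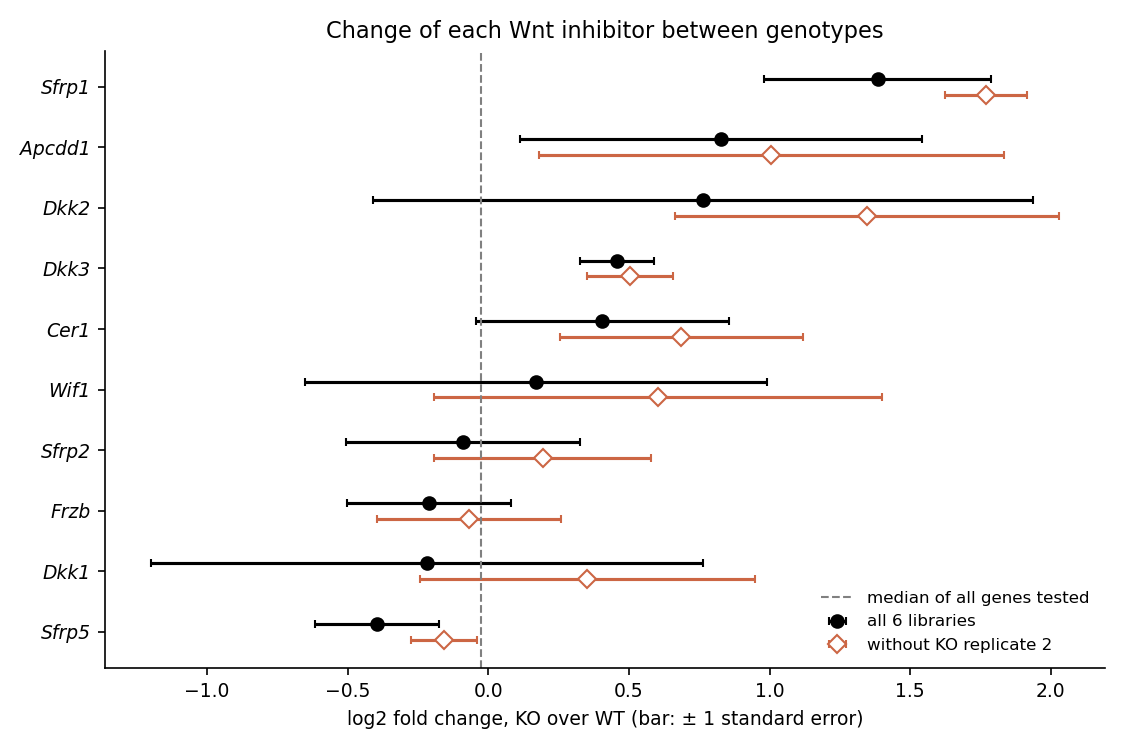
Log2 fold change of each Wnt inhibitor, KO over WT, with 1 standard error from edgeR, for all 6 libraries (black points) and without KO replicate 2 (open red diamonds). The dashed line is the median of all genes tested, -0.02, and the values run from -0.40 for *Sfrp5* to 1.38 for *Sfrp1* with all libraries.

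Seen as a pool, the inhibitor transcripts were dominated by *Sfrp5* in both genotypes, but less so in KO. The summed level of the 10 genes was 119, 118 and 103 RPKM in WT and 116, 64.6 and 123 RPKM in KO, so the totals overlapped. *Sfrp5* made up 81.8%, 83.9% and 75.5% of this sum in the WT libraries and 67.4%, 71.4% and 68.0% in the KO libraries. The share of *Sfrp1* was 2.88%, 3.58% and 4.07% in WT and 11.3%, 6.64% and 10.96% in KO, and that of *Dkk3* was 5.74%, 6.57% and 7.22% in WT and 9.62%, 15.1% and 7.58% in KO. None of these 3 genes had shares that overlapped between the genotypes, though those of *Dkk3* nearly met, at 7.22% in WT replicate 3 and 7.58% in KO replicate 3. The level of *Sfrp5* itself overlapped. For scale, the levels of 16.4% of all tested genes did not overlap, in either direction. The remaining 7 genes together held 5.91% to 13.2% in WT and 6.86% to 13.5% in KO. Set against 100 RPKM of *Sfrp5* there were 3.53, 4.26 and 5.39 RPKM of *Sfrp1* in WT and 16.7, 9.29 and 16.1 RPKM in KO. Shares of one sum are not independent of each other, and these measures were chosen after the levels had been seen, so they are given without a test.

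**Figure D5:**
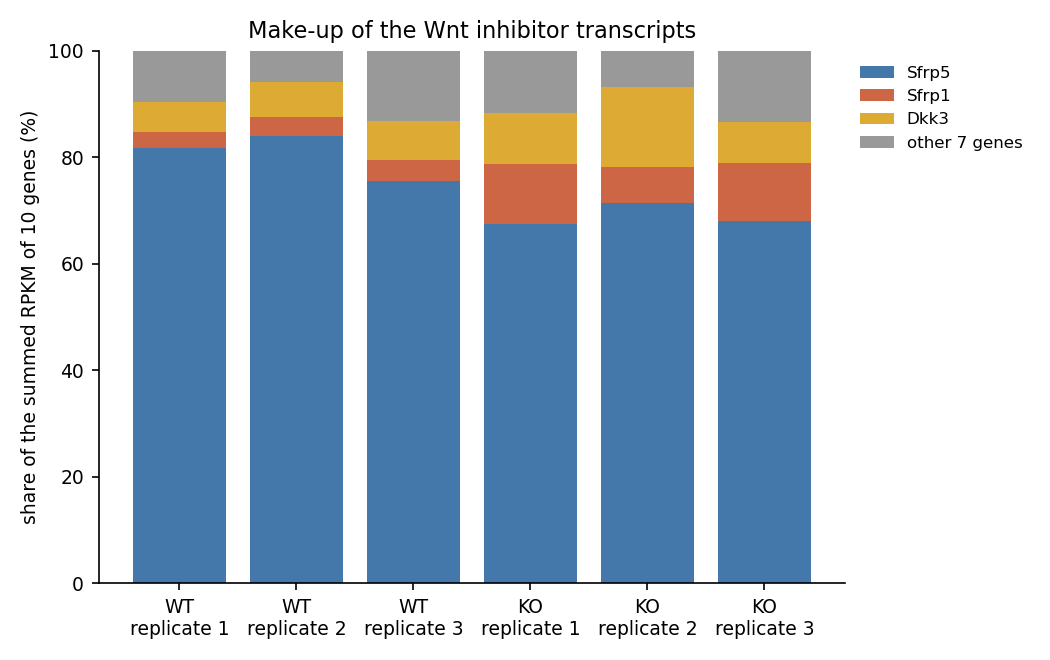
Make-up of the summed RPKM of the 10 Wnt inhibitors in each library, as stacked bars from 0 to 100%. *Sfrp5* fills 75.5% to 83.9% of the bar in the WT libraries and 67.4% to 71.4% in the KO libraries.

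Of 71 further genes listed by role, 67 of the pathway and 4 that encode partners of CER1 outside it, 54 were tested. Of these, 43 were higher in KO (median of the log2 fold changes 0.50), against 45.6% of all tested genes. By edgeR 14 of the 54 had an unadjusted p under 0.05, 12 higher and 2 lower, against 10.4% of all genes, and 0 passed after adjustment. Of the 12, *Notum*, *Fzd9* and *Sp5* passed the filter on low counts only through their KO libraries, so their p-values are no support for a difference. DESeq2 called 7, all higher in KO, against 4.87% of the genes with an adjusted p there, and 6 with the GC offsets. Such a GC-rich stretch (75% GC or more over 200 bases) lay in 29 of the 54 tested genes, in 11 of the 12 higher ones and in 0 of the 2 lower ones. Among other extracellular inhibitors and the partners through which they act, 9 of 14 were tested, 6 were higher in KO, and 3 had an unadjusted p under 0.05. *Notum*, a secreted enzyme that removes the lipid from Wnt proteins and is itself a Wnt target, had 1, 3 and 3 counts in WT and 26, 22 and 15 counts in KO, a ratio of 8.56 with a 95% counting interval of 3.92 to 22.2. Its unadjusted p was 0.00092 and its adjusted p 0.132 in edgeR's quasi-likelihood test, which it entered only through the KO libraries where it was high. *Shisa2*, which holds Frizzled receptors in the endoplasmic reticulum, was at 7.54, 13.1 and 7.38 CPM across WT and at 43.9, 17.9 and 24.5 CPM across KO, a log2 fold change of 1.63 (standard error 0.38). *Kremen1*, a membrane receptor for DKK1 and DKK2, was at 19.1, 39.7 and 17.9 CPM across WT and at 47.4, 50.2 and 42.4 CPM across KO, a log2 fold change of 0.87 (standard error 0.31). In these 3 genes all KO libraries, KO replicate 2 among them, lay above all WT libraries, as held for 8.36% of all genes.

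Transcripts of the receptors on which the inhibitors act were mostly higher in KO as well. Of 14 receptor genes tested, 12 were higher, against 45.6% of all genes. In edgeR 7 had an unadjusted p under 0.05, 6 higher and 1 lower, against 6.42% and 3.97% of all genes. The 5 with the smallest p were *Fzd7*, *Fzd2*, *Fzd9*, *Lrp6* and *Fzd3*, with log2 fold changes of 1.43 (standard error 0.26), 0.73 (0.15), 2.54 (0.61), 0.73 (0.18) and -0.32 (0.08). *Lrp6*, the co-receptor bound by DKK1 and DKK2, was at 21.2, 28.9 and 21.4 CPM across WT and at 41.5, 33.2 and 44.0 CPM in KO. *Fzd3* was the one that was lower in all KO libraries. *Fzd9*, with 3, 4 and 5 counts in WT and 55, 12 and 15 counts in KO, passed the filter on low counts only through KO. Among the ligands and the genes for their release, 10 of 12 tested were higher, but only *Wnt6* had an unadjusted p under 0.05, and its value of 0.342 CPM in KO replicate 2 lay within the WT range of 0.223 to 0.566 CPM.

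Among genes that act on receptor levels or respond to the pathway, 3 of 17 tested had an unadjusted p under 0.05, against 10.4% of all genes. Of 9 tested genes for R-spondins, their receptors and the ligases they control, 8 were higher in KO, against 45.6% of all genes. Only *Lgr4* among them, a receptor for R-spondins, had an unadjusted p under 0.05 (log2 fold change 0.63, standard error 0.25). Among 8 feedback and target genes, *Sp5*, a transcription factor induced by Wnt signalling, had a log2 fold change of 1.65 (standard error 0.46). It rested on 17 counts in all WT libraries and 59 in all KO libraries, and *Sp5* passed the filter on low counts only through KO. *Ccnd1*, which encodes cyclin D1, had a log2 fold change of -0.57 (standard error 0.21). *Axin2*, a widely used readout of the canonical pathway, averaged 1.72 ± 0.627 CPM over WT and 1.46 ± 0.228 CPM over KO libraries (SD, n = 3 each), a log2 difference of -0.24 (standard error 0.38). Of the 4 partners of CER1 outside the pathway, only *Bmp4* and *Lefty1* were tested. *Bmp4* was at 17.3, 10.502 and 21.9 CPM across WT and at 31.3, 0.456 and 26.7 CPM in KO, so that KO replicate 2 was again the lowest library, as for *Dkk1* and *Dkk2*.

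The genes whose levels followed each member most closely over the 6 libraries were different for every member. By Pearson correlation of log2 CPM among 16311 genes, they were *Cacnb3* and *Gm10479* for *Sfrp1* (r = 0.988 and 0.986), *Lama4* and *Nfia* for *Sfrp2* (0.996 and 0.987), *Pmfbp1* and *Hc* for *Sfrp5* (0.996 and 0.993), and *Ccdc163* and *Eri3* for *Frzb* (0.985 and 0.983). For the Dickkopf genes they were *Orc5* and *Ttf1* with *Dkk1* (0.996 and 0.995), *Nek6* and *Tmem119* with *Dkk2* (0.996 and 0.995), and *Kbtbd2* and *Trim3* with *Dkk3* (0.998 and 0.997). For the low genes they were *Sla2* and *Rnf157* with *Wif1*, *Chadl* and *Gtse1* with *Apcdd1*, and *Vps9d1* and *Ttpa* with *Cer1*. Between 59 and 558 genes had r over 0.9 with a given member. With 6 points that share library depth and cell make-up, these values are descriptions of these libraries.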

How the data were processed

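Polyadenylated RNA of sorted cells was copied with the SMART-seq v4 kit and made into Nextera XT libraries. After low-quality bases and sequences had been discarded, the authors mapped the reads to GRCm39 with STAR (default parameters), counted them on genes with GenomicAlignments and deposited the whole-number counts, one column per library and not normalized. Tool versions, the gene annotation and the handling of strand and of shared reads are not given in the sources used here. A symbol was found for 94% of the Ensembl identifiers.

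All genes of the deposited table were fitted in edgeR 4.0.16 (R 4.3.3) with filterByExpr, TMM factors and the quasi-likelihood test, with genotype as the only term and Benjamini-Hochberg adjustment. The standard error of a log2 fold change is its size divided by the root of the F statistic. DESeq2 1.42.0, the tool used in the study, was an alternative, and its adjusted p was not available for genes of very low counts. CPM and RPKM use TMM factors, and RPKM also the longest protein-coding transcript in GENCODE M21. That annotation is built on GRCm38, so no gene coordinates are given. The two-sided exact permutation test used log2 of CPM plus 0.5. Libraries of a genotype differed by more than counting noise (chi-square per degree of freedom 28.0 to 45.6), and no values were averaged as duplicates. WT replicate 2 and KO replicate 1 carry a common number in their library names, whose meaning is not stated, and it was not used as a batch.

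The members and lists were chosen with earlier results of these data known. The genes named beside the members were those of the pathway list with an unadjusted p under 0.05, at most 5 of each role, and the 2 genes most like each member. *Axin2*, *Bmp4*, *Sfrp4* and *Igfbp4* were named after their values were seen. Alternatives covered the test, normalization, filter, spread estimate, replicate block, GC offsets and libraries left out. Protein sequences were not used here.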

Additional observations from a re-analysis of the deposited data

How the results depend on the processing

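Among 16 alternative settings, 14 planned and 2 added after the data were seen, the signs of *Sfrp1*, *Sfrp5*, *Dkk2*, *Dkk3*, *Apcdd1* and *Cer1* held. The number of members with an adjusted p under 0.05 was 0 in edgeR and 2 in DESeq2, 2 in DESeq2 with GC offsets and 1 in DESeq2 with KO replicate 2 left out. The number at an unadjusted p under 0.05 was 2, and it was 3 in DESeq2 with GC offsets, where *Sfrp5* joined at -0.50, 0 with WT replicate 3 and KO replicate 1 left out and 4 with WT replicate 2 and KO replicate 2 left out, where *Dkk2* and *Cer1* joined. For the other Wnt genes this number was 14, and it was 22 in DESeq2, 22 with no filter on low counts, 27 in DESeq2 with KO replicate 2 left out, 10 with WT replicate 3 and KO replicate 1 left out, and between 12 and 22 on leaving out single libraries, the highest without KO replicate 2. On leaving out single libraries, *Dkk1* ran from -0.65 to 0.35, *Wif1* from -0.30 to 1.07 and *Sfrp2* from -0.43 to 0.27. With WT replicate 3 and KO replicate 1 left out, *Sfrp2* was at 0.29 and *Wif1* at -0.087. With KO replicate 2 left out in DESeq2, *Sfrp2* was at 0.20 and *Dkk1* at 0.36, and with both replicates 2 left out in edgeR *Frzb* was at 0.0090. The cause of these shifts was not tested. When single libraries were left out, *Sfrp1* ran from 1.17 to 1.77, *Dkk3* from 0.39 to 0.55, *Dkk2* from 0.20 to 1.43, *Apcdd1* from 0.22 to 1.31, *Cer1* from 0.16 to 0.84, *Frzb* from -0.51 to -0.03 and *Sfrp5* from -0.52 to -0.16. Over all genes, an adjusted p under 0.05 was reached by 0 genes in the reported fit, 699 in DESeq2, 264 without the filter, 217 without WT replicate 2, 514 with GC offsets and 719 in DESeq2 without KO replicate 2, and an unadjusted p by 1700 genes in the reported fit and 788 with WT replicate 3 and KO replicate 1 left out. Whether the replicate numbers pair the libraries could not be settled with 3 libraries a genotype. Deviations from the group means correlated by -0.21, 0.25 and 0.08 for replicates 1, 2 and 3, and by -0.31 to 0.34 for libraries of unlike number. For WT replicate 2 and KO replicate 1, which share a number in their library names, the correlation was -0.13. With the replicate block, 2 members had an unadjusted p under 0.05, *Sfrp1* was at 1.24 and *Dkk3* at 0.46, *Dkk2* at 0.21, and 1693 genes in all had an unadjusted p under 0.05. Low counts limit *Wif1*, *Apcdd1* and *Cer1*, and 3 libraries a genotype limit every value.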

Other observations

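The inhibitor genes that the filter on low counts left untested went in both directions, and they are named here after their values were seen. *Dkkl1* had 26 counts in all WT libraries and 16 in all KO libraries, *Sost* had 9 and 2, and *Dkk4* had 0 in every library. *Kremen2* and *Sostdc1* had more counts in KO. *Kremen2*, the second receptor for Dickkopf proteins, had 0, 7 and 6 counts in WT and 11, 11 and 125 counts in KO, so that most of its KO counts came from KO replicate 3. *Sostdc1*, a secreted antagonist of BMP and Wnt signalling, had 3, 3 and 7 counts in WT and 56, 6 and 28 counts in KO. Its CPM values in KO replicate 2 (0.342) and in WT replicate 3 (0.340) were nearly equal. *Sfrp4*, the remaining Frizzled-related gene, passed the filter and was lower in KO, with 16, 19 and 20 counts in WT and 0, 6 and 19 counts in KO. Its log2 fold change of -1.06 (standard error 1.01) had an unadjusted p of 0.33 in edgeR's quasi-likelihood test.

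*Igfbp4*, a secreted protein that binds Frizzled and LRP6 and was the most abundant of these further inhibitors in CPM, was at 260, 238 and 285 CPM in WT and at 239, 190 and 322 CPM in KO, with a log2 fold change of -0.06 (standard error 0.18).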
